A study of Mus musculus with 3 samples.

Results

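Liver sinusoidal endothelial cells, the cells that line the capillaries between plates of hepatocytes, were described from single-cell RNA sequencing of 3 mouse livers after paracetamol injury, as 1875 of 30684 kept cell barcodes. The barcodes were chosen by their own transcript counts. A member had at least 3 of the 8 genes Stab2, Clec4g, Oit3, Kdr, Gpr182, Dnase1l3, Bmp2 and F8 detected by at least 1 unique molecular identifier (UMI, the tag of 1 captured transcript). It had 0 UMIs of Ptprc (the leukocyte antigen CD45) and of the Kupffer cell and macrophage genes Clec4f and C1qb, and it did not have 2 or more of the venous genes Rspo3, Selp and Vwf. A barcode was kept with 200 or more genes, 500 or more UMIs and a mitochondrial share of UMIs of 20% or less.

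All 3 mice had received 500 mg/kg of paracetamol (acetaminophen, APAP), which kills hepatocytes around the central veins. The first received an infusion of engineered mesenchymal stromal cells (MSCs), which per the labels carry bispecific polyvalent peptides, the second received native MSCs and the third received phosphate-buffered saline (PBS). Infusions were given 6 h after the drug, and livers were dissociated 4 days later. Each group was 1 mouse and 1 library, and neither the strain, age and sex of the mice nor the source of the MSCs is given in the sources used here. No test between groups was therefore possible, and an effect of an infusion and a difference between 2 mice or 2 libraries cannot be told apart. All intervals below are 95% intervals that cover counting error only, and an uninjured liver was not analysed here.

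Sinusoidal endothelium differs from other capillary endothelium by open pores (fenestrae), by the lack of a full basement membrane and by scavenger receptors, among them the stabilins and the mannose receptor, that clear waste molecules from blood. Its cells differ along the sinusoid: those near the central vein express Wnt2, Wnt9b and Kit, and those near the portal tract express Efnb2, Dll4 and Ltbp4. They also secrete factors that act on hepatocytes, such as Wnt2 and hepatocyte growth factor (Hgf), and can present antigen.

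Sinusoidal endothelial barcodes numbered 1308 in the engineered MSC library, 49 in the native MSC library and 518 in the PBS library. They held 7453696, 349173 and 2465487 UMIs in that order of libraries, so the native MSC values rest on far fewer transcripts than the others. The median barcode had 4923.5 UMIs in the engineered MSC library, 6229 in the native MSC library and 4050 in the PBS library, with median mitochondrial shares of 4.54%, 3.08% and 3.16%. Free RNA differed between libraries. Genes of a hepatocyte list summed to 10418 CPM (UMIs per 1000000 UMIs of the barcodes summed) in engineered MSC, 3967 in native MSC and 1995 in PBS members, against 11573, 4517 and 3439 CPM in T-cell barcodes of the same libraries, which should lack them. Red cell genes summed to 2449, 6129 and 9.33 CPM in members and to 2478, 10736 and 6.80 CPM in T-cell barcodes. A macrophage list reached 283, 988 and 1204 CPM in members against 728, 2371 and 4082 CPM in T-cell barcodes. No member barcode sequence was shared between libraries, although 39 to 46 of all barcode sequences were shared by each pair of libraries.

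The label was checked with sinusoidal genes that did not choose the barcodes. A list of 13, with Stab1, Lyve1, Mrc1, Fcgr2b, Ehd3, Gata4 and Maf among them, summed to 13464 CPM in engineered MSC, 11885 CPM in native MSC and 8394 CPM in PBS members, against 405, 400 and 676 CPM in T-cell barcodes. In the barcodes left out for Rspo3, Selp and Vwf this list summed to 8621, 5403 and 5063 CPM. It was thus higher in members of each library but not particular to them. A list of 14 pan-endothelial genes summed to 10059, 9445 and 9433 CPM in members of the 3 libraries. In the barcodes left out for Rspo3, Selp and Vwf it summed to 11174, 9980 and 9155 CPM. Lymphocyte genes summed to 17.7, 5.73 and 27.2 CPM, which does not bear on the label because the rule asked for 0 UMIs of the leukocyte gene Ptprc. A list for stellate cells and fibroblasts summed to 615, 599 and 866 CPM in members, above the 322, 39.1 and 49.1 CPM of T-cell barcodes, and 17, 0 and 11 members had at least 5 UMIs over Ccl21a, Mmrn1, Pdpn, Dcn, Lrat, Reln, Epcam and Krt19, markers of lymphatic, stellate and biliary cells.

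The 8 choosing genes are given as description. Stab2, a receptor that clears hyaluronan, was at 2713 CPM in engineered MSC, 2864 CPM in native MSC and 2246 CPM in PBS members. Clec4g, a sinusoidal lectin, was at 1593, 1254 and 679 CPM, and Bmp2, which makes hepatocytes secrete hepcidin, at 1204, 1160 and 476 CPM in the same order. All 8 genes were detected in 931 engineered MSC members (71.2%), 24 native MSC members (49.0%) and 173 PBS members (33.4%). At the threshold, 44, 2 and 41 members had exactly 3 of the 8, and 86, 12 and 49 barcodes that met every other condition had 2. Members with exactly 3 had 967, 2784 and 3206 CPM of the 8 genes together, and barcodes with 2 had 395, 973 and 1941 CPM.

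The share of kept barcodes that were sinusoidal endothelial was 13.0% (12.4 to 13.7) in the engineered MSC library, 0.480% (0.355 to 0.634) in the native MSC library and 4.96% (4.55 to 5.40) in the PBS library. The intervals of the 3 libraries did not overlap. The share was 2.62 times as high (2.37 to 2.91) in the engineered MSC library as in the PBS library, and 10.3-fold lower (7.70 to 14.2) in the native MSC library than in the PBS library. These shares depend on the cells that dissociation released as well as on the liver, and fewer cells of a type and more cells of other types cannot be told apart.

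The size of the difference depended on the step that asked for 0 UMIs of Ptprc, Clec4f and C1qb. That step removed 1000 of 2468 barcodes with 3 or more markers (40.5%) in the engineered MSC library, 124 of 201 (61.7%) in the native MSC library and 1163 of 1696 (68.6%) in the PBS library. Of those removed, 398, 48 and 394 carried just 1 UMI of the 3 genes, and 281, 30 and 315 carried 10 or more. In T-cell barcodes, which should lack C1qb, 8.23% had a C1qb UMI in the engineered MSC library, 23.9% in the native MSC library and 41.0% in the PBS library. With no limit on the 3 genes the shares were 21.7%, 1.43% and 15.6%, so the engineered MSC share was 1.38 times the PBS share (1.30 to 1.48), and the native MSC share was 10.9-fold lower than the PBS share. With up to 1 UMI allowed, the shares were 16.4%, 0.853% and 8.63%.

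**Figure D1:**
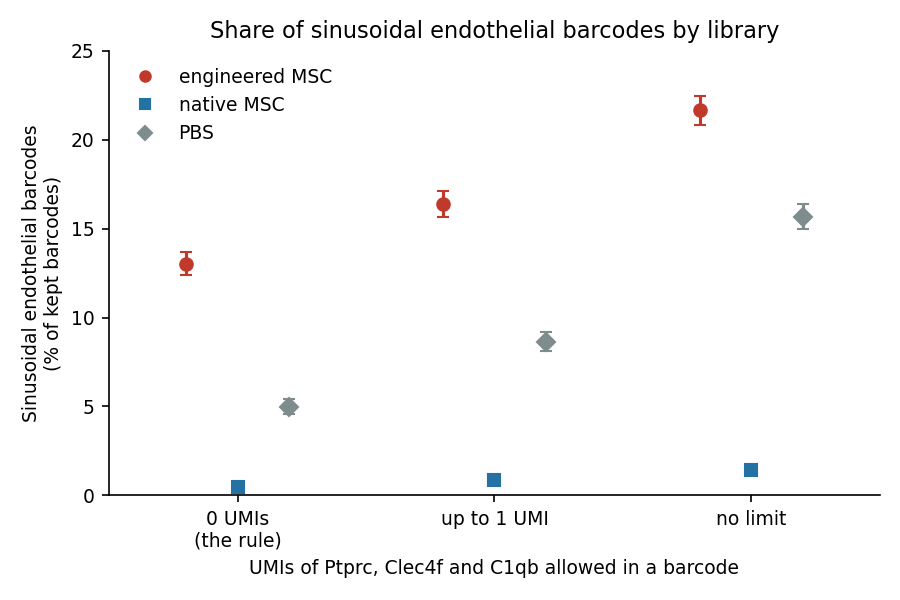
Share of kept barcodes (%, vertical axis) that were sinusoidal endothelial in the engineered MSC, native MSC and PBS libraries, for 3 limits on UMIs of Ptprc, Clec4f and C1qb; bars are exact binomial 95% intervals. The engineered MSC share stood above the PBS share at each limit, by 2.62 times under the rule and by 1.38 times with no limit, and the native MSC share stayed below 1.5%.

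Venous and other vascular endothelial barcodes, which met the other conditions but had 2 or more of Rspo3, Selp and Vwf, numbered 160 in the engineered MSC, 28 in the native MSC and 15 in the PBS library. They were 10.9% (9.35 to 12.6), 36.4% (25.7 to 48.1) and 2.81% (1.58 to 4.60) of the endothelial barcodes that the rule split in this way. Their gene levels are given below where they bear on the sinusoidal values.

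Genes that interferons induce were higher in the sinusoidal endothelium of the engineered MSC liver than in that of either other liver. The promoters of 3 of them, chosen after their values were seen, are shown because these genes had some of the widest gaps between libraries and because each holds the paired GAAA letters of an interferon-stimulated response element. The sequences are the 250 bases before the start of the gene in RefSeq on build GRCm38.p6, with the strand of the gene, at chr19:34583279-34583528 (+) for Ifit3, chr19:34640639-34640888 (+) for Ifit1 and chr4:156200819-156201068 (-) for Isg15. Capitals mark GAAANNGAAA, read on either strand. The matches began 156 and 122 bases before the start in Ifit3, 104 and 85 bases before it in Ifit1, and 78 and 72 bases before it for the first 2 of 3 overlapping matches in Isg15.
Ifit3: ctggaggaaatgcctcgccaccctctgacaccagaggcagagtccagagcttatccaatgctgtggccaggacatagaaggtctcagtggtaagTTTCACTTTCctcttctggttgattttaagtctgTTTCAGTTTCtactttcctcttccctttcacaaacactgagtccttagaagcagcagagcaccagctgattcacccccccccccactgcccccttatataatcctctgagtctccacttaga
Ifit1: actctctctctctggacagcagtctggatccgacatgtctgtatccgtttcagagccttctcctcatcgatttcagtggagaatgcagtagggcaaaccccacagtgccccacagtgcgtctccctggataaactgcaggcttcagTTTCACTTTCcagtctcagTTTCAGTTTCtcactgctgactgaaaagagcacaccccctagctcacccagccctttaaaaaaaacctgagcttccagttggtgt
Isg15: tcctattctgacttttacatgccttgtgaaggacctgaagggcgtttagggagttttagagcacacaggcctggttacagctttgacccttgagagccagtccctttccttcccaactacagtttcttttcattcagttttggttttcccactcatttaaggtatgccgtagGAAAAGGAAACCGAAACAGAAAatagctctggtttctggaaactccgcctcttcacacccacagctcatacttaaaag
Over windows of 250 bases before to 50 after the start, the motif was in 1131 of 32851 windows in the table (3.44%). It was in 8 of 15 windows matched to the interferon response list (53.3%), in 10 of 16 windows of a list of interferon-gamma-induced GTPases (62.5%) and in 4 of 14 windows of a list of MHC class I genes (28.6%). A match describes the letters and was not tied to binding of any factor.

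A gene counted as measured in a pair of libraries when the 2 had at least 20 UMIs of it together. Of 12447 genes measured in engineered MSC and PBS members, 12.8% were more than 2-fold higher and 7.96% more than 2-fold lower in engineered MSC, with a median log2 ratio of 0.02. All 18 measured genes of the interferon response list were higher in engineered MSC than in PBS members, 13 of them by more than 2-fold, and the median log2 ratio was 1.32. In T-cell barcodes the list's median log2 ratio was 0.15, and in venous and vascular endothelial barcodes it was 1.68. The higher levels were therefore measured in both kinds of endothelial barcode.

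Ifit3, an antiviral protein that binds Ifit1, was at 90.0 CPM (83.3 to 97.1) in engineered MSC, 5.73 CPM (0.694 to 20.7) in native MSC and 10.1 CPM (6.56 to 15.0) in PBS members. It was 8.88 times as high (5.96 to 13.8) in engineered MSC as in PBS members, a log2 ratio of 3.15 that was 2.22 with no limit on Ptprc, Clec4f and C1qb, and the interval of engineered MSC did not overlap those of the other libraries. Ifit1, which binds foreign RNA caps, was at 50.2 CPM in engineered MSC and at 8.11 CPM in PBS members. In native MSC members it had 0 of 349173 UMIs. Without thinning, Ifit1 was at least 5.84-fold higher in engineered MSC than the level of 3 UMIs in native MSC. Its log2 ratio of engineered MSC to native MSC, 5.13, was 1.95 with barcodes thinned to 1000 UMIs. That of engineered MSC to PBS, 2.63, was 1.49 in the same setting, so the size of both differences depended on the setting. Ifi44, an interferon-induced protein, was at 208, 20.0 and 43.8 CPM in engineered MSC, native MSC and PBS members, and at 3.02, 0.571 and 1.51 CPM in T-cell barcodes. It was 4.74 times as high (3.90 to 5.81) in engineered MSC as in PBS members and 10.4 times as high (5.01 to 25.8) as in native MSC members, a log2 ratio of 3.37 that was 4.36 when each barcode counted alike. The T-cell levels of Ifi44 were far below those of the members in every library.

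Isg15, a ubiquitin-like protein that is joined to other proteins, was at 112, 28.6 and 23.9 CPM in engineered MSC, native MSC and PBS members, a ratio of 4.70 (3.61 to 6.23) between engineered MSC and PBS members whose log2 value of 2.23 was 1.48 with no limit on Ptprc, Clec4f and C1qb. Rsad2 (viperin), which makes a chain-terminating nucleotide, was at 133, 37.2 and 40.6 CPM, a ratio of 3.29 (2.67 to 4.08). Ifit2 was at 160, 34.4 and 24.3 CPM, a ratio of 6.57 (5.06 to 8.66). Stat2, a transcription factor that carries the interferon signal, differed less, at 84.3, 57.3 and 42.6 CPM. The smallest ratio of the 18 was that of Bst2 (tetherin), which holds budding virus at the membrane, at 886, 556 and 639 CPM.

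**Figure D2:**
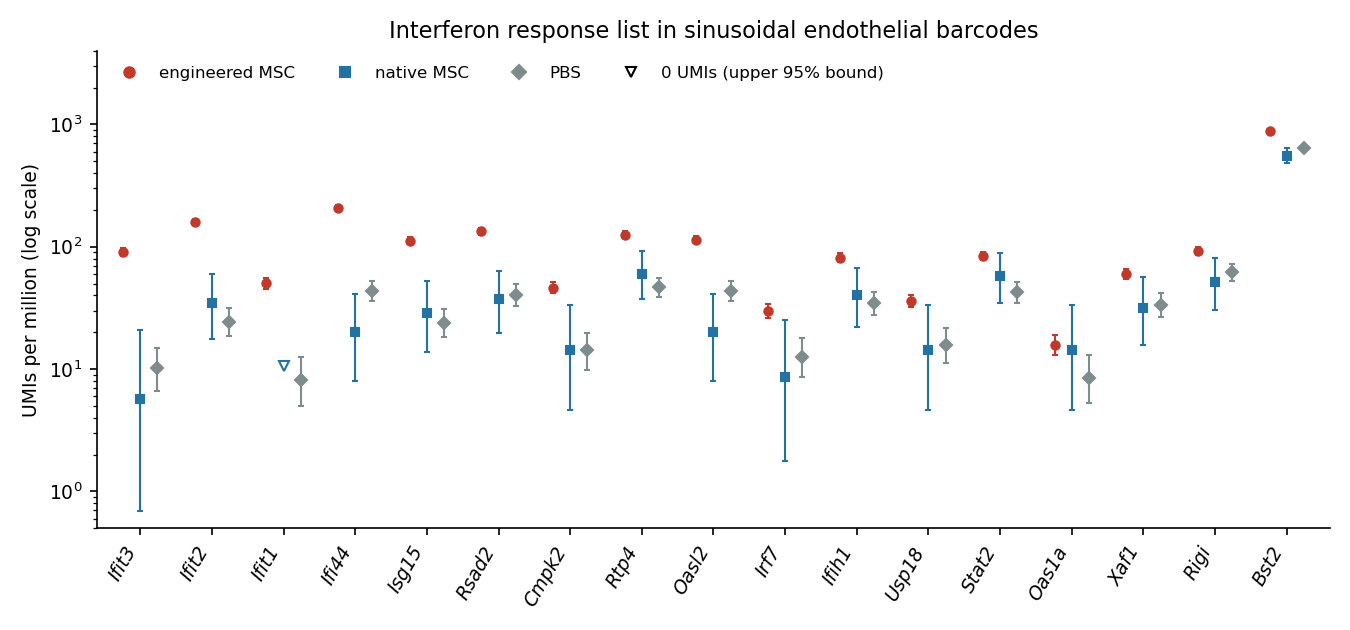
CPM (vertical axis, log scale) of 17 of the 18 measured interferon response genes in sinusoidal endothelial barcodes of the 3 libraries, ordered by the ratio of engineered MSC to PBS; bars are exact Poisson 95% intervals and the open triangle is the upper bound of Ifit1 in native MSC, which had 0 UMIs. The engineered MSC symbols lie above the other 2 for every gene shown, with ratios to PBS between 8.88 for Ifit3 and 1.39 for Bst2.

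In native MSC members the same list was not higher than in PBS members. Of 9683 genes measured in that pair, 5.97% were more than 2-fold higher and 10.2% more than 2-fold lower in native MSC, and the median log2 ratio was -0.09. None of the 18 measured interferon genes was more than 2-fold higher, 3 were more than 2-fold lower, and the list's median was -0.13, which became -1.01 when barcodes were thinned to 1000 UMIs. Between engineered MSC and native MSC members, where 15.8% of 11990 measured genes were more than 2-fold higher and 8.37% more than 2-fold lower in engineered MSC, all 18 were higher in engineered MSC, 13 by more than 2-fold, with a median log2 ratio of 1.71, and Stat2 alone changed sign, to -0.20, when each barcode counted alike. In T-cell barcodes that median was 0.74.

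Genes typical of interferon-gamma differed in the same way. The list of GTPases and their regulators, which includes the guanylate-binding proteins that attack the compartments of intracellular pathogens, had 15 genes measured in engineered MSC and PBS members, of which 12 were more than 2-fold higher and 1 more than 2-fold lower in engineered MSC, with a median log2 ratio of 1.42 against 0.22 in T-cell barcodes. Iigp1, an immunity-related GTPase, was at 386, 175 and 144 CPM in engineered MSC, native MSC and PBS members, 2.68 times as high (2.40 to 3.00) in engineered MSC as in PBS members. Gbp2 was at 42.9, 11.5 and 9.73 CPM, a ratio of 4.41 (2.91 to 6.99) between the same members. Tgtp2 was at 20.4, 2.86 and 3.24 CPM, a ratio of 6.28 (3.11 to 14.8) whose log2 value of 2.65 was 1.97 after thinning. Irf8, a transcription factor best known from macrophages and dendritic cells, went the other way, at 97.7, 304 and 256 CPM, and was 2.62-fold lower (2.35 to 2.91) in engineered MSC than in PBS members. The macrophage list was also lowest in engineered MSC members, at 283, 988 and 1204 CPM, and the part of such RNA in Irf8 was not tested.

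All 15 measured genes of the MHC class I pathway, which shows peptides to CD8 T cells, had positive log2 ratios between engineered MSC and PBS members, except that Erap1 changed sign in 2 of 17 alternative settings. The median was 0.86, against 0.30 in T-cell barcodes, and 5 genes were more than 2-fold higher. H2-T23, a non-classical class I gene, was at 157, 77.3 and 36.5 CPM in engineered MSC, native MSC and PBS members, and was 4.29 times as high (3.46 to 5.38) in engineered MSC as in PBS members. Psmb9, a subunit of the immunoproteasome that cuts the peptides, was at 96.1, 17.2 and 27.6 CPM, a ratio of 3.48 (2.71 to 4.53). The classical gene H2-K1 was at 1367, 705 and 730 CPM and the light chain B2m at 1931, 977 and 1104 CPM, with ratios of 1.87 (1.78 to 1.97) and 1.75 (1.68 to 1.82). The weakest member was Erap1, which trims peptides, at 57.4, 34.4 and 56.8 CPM. Class I genes are abundant in lymphocytes, and H2-Q7 was higher in T-cell barcodes (636, 829 and 539 CPM) than in members (120, 31.5 and 51.9 CPM).

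The interferon signal was spread over many barcodes. After each barcode was thinned at random to 1000 UMIs, which left out 65, 5 and 51 shallower members, engineered MSC members had a mean of 2.43 UMIs (SD 2.31 over 1243 barcodes) of the interferon response list. Native MSC members had 0.841 (SD 0.888 over 44 barcodes) and PBS members 1.14 (SD 1.19 over 467 barcodes). At least 2 such UMIs were found in 59.0% (56.2 to 61.7) of engineered MSC, 22.7% (11.5 to 37.8) of native MSC and 28.7% (24.6 to 33.0) of PBS members. Barcodes with 4 or more were 23.7% of engineered MSC members, 0 of 44 native MSC members and 4.28% of PBS members. T-cell barcodes thinned in the same way had means of 0.852, 0.485 and 0.593 UMIs. Barcodes share a mouse and a library, so these shares describe the 3 libraries and are not replicates.

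**Figure D3:**
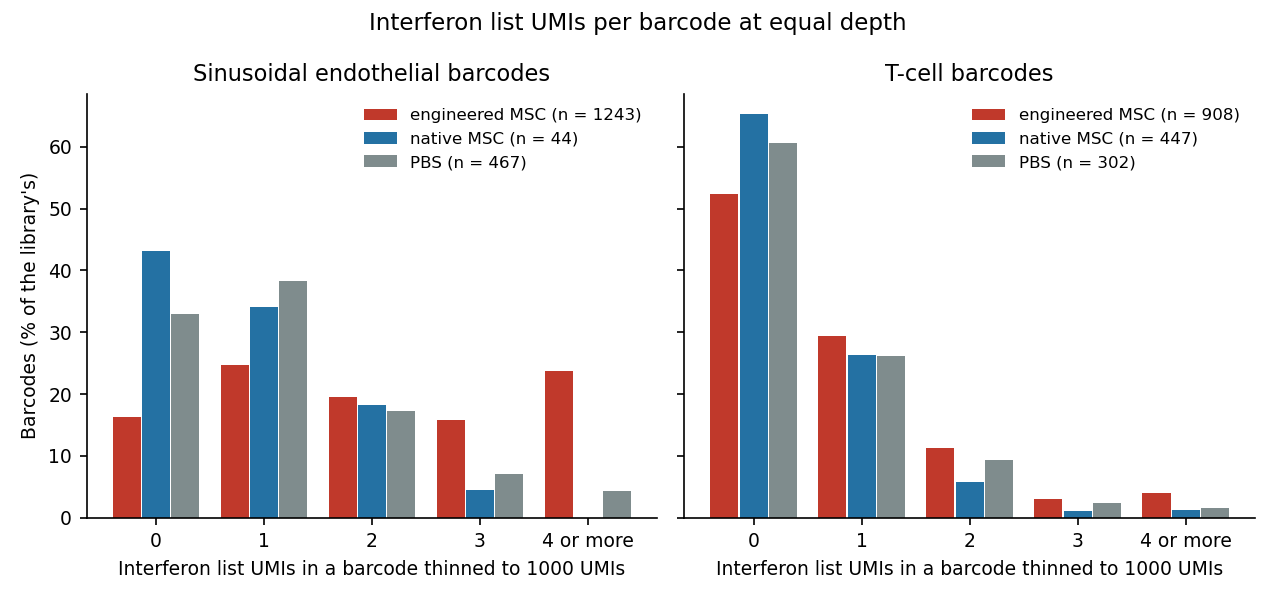
Percentage of barcodes (vertical axis) by the number of interferon list UMIs in a barcode thinned to 1000 UMIs (horizontal axis), for sinusoidal endothelial barcodes (left) and T-cell barcodes (right) of the 3 libraries. In the left panel 23.7% of engineered MSC members had 4 or more such UMIs against 4.28% of PBS members, and in the right panel the 3 libraries differed less, with 3.96% and 1.66% for engineered MSC and PBS.

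Among genes of the pericentral end of the sinusoid, Wnt2, which keeps the hepatocytes around the central vein in their state, showed a large difference. It was at 266 CPM (254 to 277) in engineered MSC, 65.9 CPM (41.8 to 98.8) in native MSC and 34.1 CPM (27.2 to 42.2) in PBS members. The engineered MSC level was 7.79 times the PBS level (6.26 to 9.81) and 4.03 times the native MSC level (2.68 to 6.37), and the native MSC level was 1.93 times the PBS level (1.16 to 3.10). The last of these was unsteady: its log2 ratio of 0.95 became 0.23 without the 25% of members richest in hepatocyte genes and 2.12 with venous barcodes kept, and that of engineered MSC to native MSC, 2.01, became 2.66 and 0.97 in those settings. T-cell barcodes had 1.21 and 0.286 CPM of Wnt2 in the engineered MSC and native MSC libraries and none in the PBS library. In thinned members, 21.3% of engineered MSC, 11.4% of native MSC and 3.43% of PBS barcodes had a Wnt2 UMI. Venous and vascular barcodes were at 606, 290 and 97.9 CPM, so the order of the libraries was alike in them.

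Of the other pericentral genes described here, Cdh13 and Kit had smaller ratios than Wnt2 and Thbd went the other way, while Wnt9b did not differ less. Of 10 measured in engineered MSC and PBS members, 3 were more than 2-fold higher in engineered MSC and none more than 2-fold lower, with a median log2 ratio of 0.75. Wnt9b was at 10.3 CPM in engineered MSC, at 2.86 CPM (1 UMI) in native MSC and at 0.811 CPM (2 UMIs) in PBS members, and its venous and vascular levels were 143, 135 and 45.2 CPM. The size of the Wnt9b difference in members rests on those few UMIs. Cdh13, a cadherin and adiponectin receptor, was at 418, 132 and 129 CPM, 3.23 times as high (2.87 to 3.63) in engineered MSC as in PBS members. Kit, the receptor of stem cell factor, was at 389, 295 and 222 CPM, a ratio of 1.75 (1.60 to 1.92). Thbd (thrombomodulin), which turns thrombin to an anticoagulant role, had a ratio below 1, at 116, 172 and 176 CPM, 1.53-fold lower (1.36 to 1.72) in engineered MSC than in PBS members.

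Members were also divided into ranges by their thinned UMIs of the pericentral and the periportal list, which are ranges of a score and not cell types. The pericentral range had at least 2 UMIs of the pericentral list and fewer than 2 of the periportal list. The periportal range was the reverse. Of the thinned engineered MSC members 230 (18.5%, 16.4 to 20.8) were in the pericentral range. In native MSC these were 12 (27.3%, 15.0 to 42.8) and in PBS 101 (21.6%, 18.0 to 25.6), so this range was not a larger part of the engineered MSC members. The periportal range held 382 (30.7%), 7 (15.9%) and 85 (18.2%) members. Because 681, 24 and 265 members had just 1 or 2 UMIs of either list, many lay near the boundary. The ranges also lack the barcodes that the rule left out for Rspo3, Selp and Vwf. Those were 10.9%, 36.4% and 2.81% of the endothelial barcodes, so the ranges were cut unequally between libraries. Within the pericentral range Wnt2, which is on the list that defined it, was at 626 CPM (528 to 737) in engineered MSC and at 39.6 CPM (10.8 to 101) in PBS members. When the range was drawn without Wnt2, Kit and Cdh13 the values were 645 and 33.3 CPM. The interferon list was at 2157 CPM in the pericentral and 2686 CPM in the periportal range of engineered MSC members, against 1149 and 1153 CPM in PBS members, so its higher level was measured at both ends.

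Periportal genes differed mostly between the native MSC members and the others. Of 10 measured in native MSC and PBS members, 3 were more than 2-fold lower and 1 more than 2-fold higher in native MSC, and the median log2 ratio was -0.68. Between engineered MSC and native MSC members 7 of 10 were more than 2-fold higher in engineered MSC, with a median of 1.14. Ntn4 (netrin 4), a laminin-related matrix protein, was at 457 CPM in engineered MSC, 123 CPM in native MSC and 490 CPM in PBS members, 3.98-fold lower (2.94 to 5.53) in native MSC than in PBS members. Adam23, a membrane protein that binds integrins, was at 1500, 653 and 1059 CPM, 1.62-fold lower in native MSC than in PBS members and 2.30 times as high in engineered MSC as in native MSC members. With no limit on Ptprc, Clec4f and C1qb the log2 ratio of native MSC to PBS was -0.02 for Adam23, in place of -0.70, and -0.82 for Ntn4, in place of -1.99. Msr1, a scavenger receptor for modified lipoproteins, was at 399, 178 and 456 CPM, 2.57-fold lower (1.99 to 3.37) in native MSC than in PBS members, a log2 ratio of -1.36 that was -0.77 in the same setting.

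**Figure D4:**
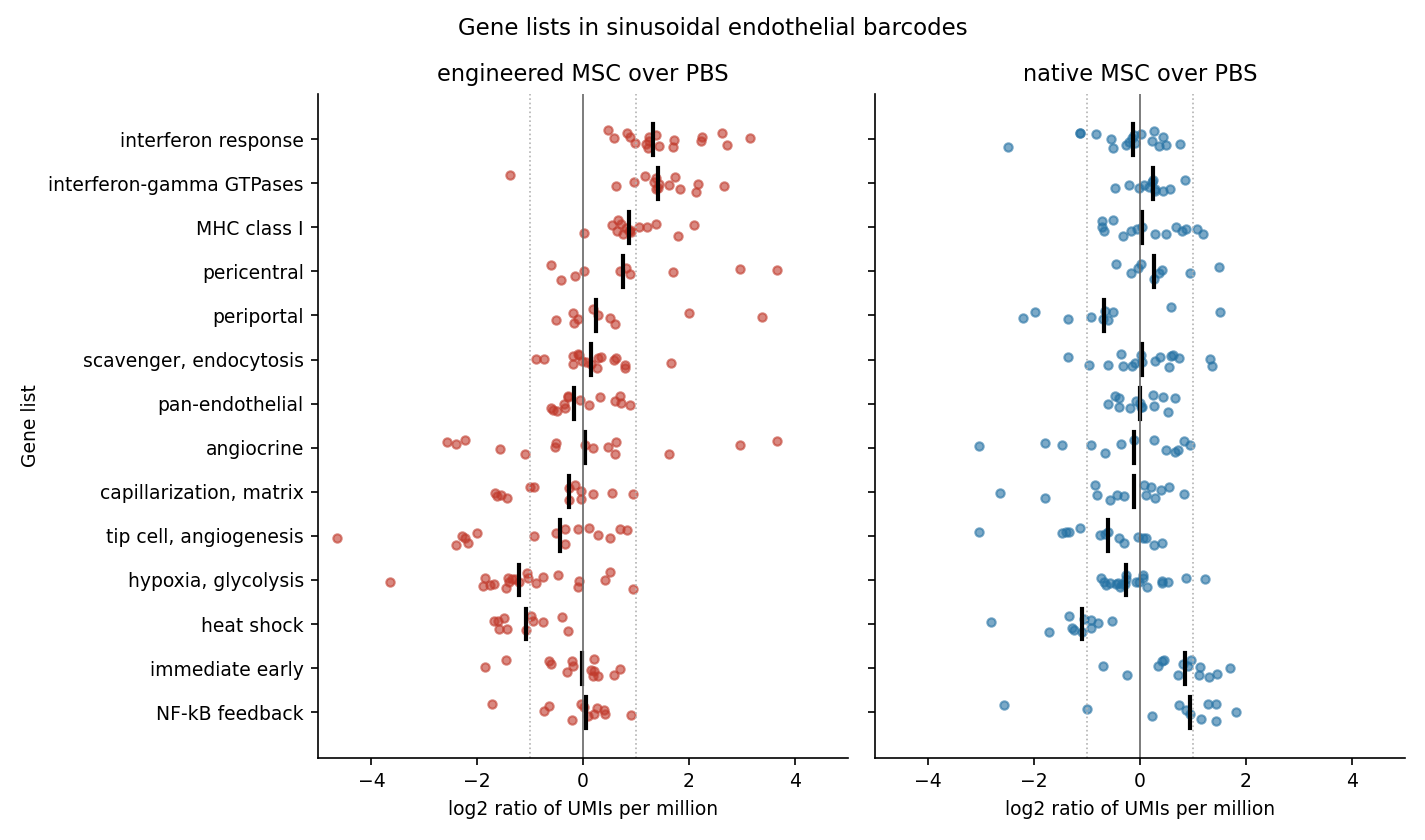
Log2 ratio of CPM (horizontal axis) for every measured gene of 14 lists, 1 point a gene, in engineered MSC over PBS (left) and native MSC over PBS (right) sinusoidal endothelial barcodes; black lines are list medians, dotted lines mark 2-fold, and a count of 0 was replaced by 0.5 UMIs. The interferon response median is 1.32 on the left and -0.13 on the right, the heat shock median is -1.08 on the left and -1.10 on the right, and the hypoxia and glycolysis median is -1.21 on the left and -0.26 on the right.

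Secreted factors moved in both directions, so their list gave no single picture: of 15 angiocrine genes measured in engineered MSC and PBS members, 3 were more than 2-fold higher and 5 more than 2-fold lower in engineered MSC, with a median log2 ratio of 0.03. Hgf, the growth factor that makes hepatocytes divide through Met, was at 219 CPM in engineered MSC, 558 CPM in native MSC and 467 CPM in PBS members. It was 2.13-fold lower (1.97 to 2.30) in engineered MSC than in PBS members. Inhbb, a subunit of activin B, was at 36.0, 384 and 215 CPM, 5.98-fold lower (5.15 to 6.95) in engineered MSC than in PBS members and 10.7-fold lower (8.61 to 13.2) than in native MSC members, log2 ratios of -2.58 and -3.42 that were -1.98 and -2.40 with no limit on Ptprc, Clec4f and C1qb. In thinned members an Inhbb UMI was found in 2.57%, 38.6% and 16.5% of barcodes. Bmp6, which with Bmp2 sets hepcidin, was at 480, 487 and 346 CPM, 1.39 times as high in engineered MSC and 1.41 times as high in native MSC as in PBS members. Igfbp7, which binds insulin-like growth factors, was at 2103, 2254 and 1378 CPM, with ratios of 1.53 and 1.64 to PBS. Lgals1 (galectin 1) was at 198, 455 and 586 CPM, 2.96-fold lower in engineered MSC than in PBS members.

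Some genes of endothelial tip cells, which lead a growing vessel, were lower in the engineered MSC members, while the list as a whole was at a like level. Of 16 measured tip cell and angiogenesis genes, 6 were more than 2-fold lower and none more than 2-fold higher in engineered MSC than in PBS members, and 5 had positive log2 ratios. The median was -0.43, against -0.79 over the 6 genes measured in T-cell barcodes and 0.14 over the 10 measured in venous and vascular barcodes. Summed over the list, members were at 3657 CPM in engineered MSC, 2858 CPM in native MSC and 3671 CPM in PBS, and thinned members had means of 3.61, 3.02 and 3.77 UMIs. Esm1, a proteoglycan of tip cells, was at 77.9 CPM in engineered MSC, 143 CPM in native MSC and 380 CPM in PBS members, 4.88-fold lower (4.39 to 5.42) in engineered MSC and 2.65-fold lower (2.00 to 3.60) in native MSC than in PBS members. The log2 ratio of native MSC to PBS, -1.41, was -0.51 when each barcode counted alike. Esm1 was uneven between barcodes: 89 PBS UMIs were in 1 barcode, and in thinned members it was detected in 3.46%, 13.6% and 16.3% of barcodes. Apln, the ligand of the apelin receptor, was at 1.74, 20.0 and 43.8 CPM, 25.1-fold lower (14.1 to 48.7) in engineered MSC than in PBS members, a log2 ratio of -4.65 that was -3.80 with venous barcodes kept. Pdgfb, which recruits pericytes, was at 22.1, 14.3 and 117 CPM, and was 5.30-fold lower (4.36 to 6.45) in engineered MSC and 8.19-fold lower (3.47 to 25.4) in native MSC than in PBS members, where native MSC had 5 UMIs. With venous barcodes kept the log2 ratio of native MSC to PBS was -1.40 in place of -3.03. Angpt2, the antagonist of the Tie2 receptor, was at 20.3, 34.4 and 94.9 CPM, 4.68-fold lower (3.80 to 5.79) in engineered MSC than in PBS members.

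Receptors on the same list did not share a direction. Nrp1, a co-receptor of vascular endothelial growth factor, was at 1295, 788 and 726 CPM in engineered MSC, native MSC and PBS members, 1.78 times as high (1.69 to 1.88) in engineered MSC as in PBS members. Tek, which encodes Tie2, was at 583, 238 and 360 CPM, a ratio of 1.62. Nrp2 was at 474, 375 and 388 CPM, a ratio of 1.22. Cxcr4, the receptor of Cxcl12, was at 3.62, 5.73 and 14.6 CPM, 4.03-fold lower in engineered MSC than in PBS members, a log2 ratio of -2.01 that was -0.81 with no limit on Ptprc, Clec4f and C1qb, and these levels were below the 76.6, 136 and 164 CPM of T-cell barcodes.

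Collagen IV genes and some other basement membrane genes were lower in engineered MSC than in PBS members. Col4a1 and Col4a2 encode the 2 chains of type IV collagen, which sinusoids lay down when they turn into ordinary capillaries. Col4a1 was at 465 CPM in engineered MSC, 845 CPM in native MSC and 1480 CPM in PBS members, 3.18-fold lower (3.04 to 3.34) in engineered MSC and 1.75-fold lower in native MSC than in PBS members. In thinned members a Col4a1 UMI was found in 33.7%, 59.1% and 71.9% of barcodes, so the difference lay in many barcodes. Col4a2 was at 222, 504 and 683 CPM, 3.09-fold lower (2.88 to 3.30) in engineered MSC and 1.36-fold lower in native MSC than in PBS members. Lamc1, a laminin chain, was at 61.4, 100 and 180 CPM, 2.92-fold lower in engineered MSC than in PBS members, and Sparc, a collagen-binding protein, was at 1348, 2082 and 2552 CPM, 1.89-fold lower. Lama4, another laminin chain, went the other way, at 296, 275 and 155 CPM, 1.92 times as high in engineered MSC and 1.78 times as high in native MSC as in PBS members. Plvap, which forms the diaphragms of ordinary fenestrae, was at 126, 158 and 130 CPM, and Cd34 at 20.9, 31.5 and 21.5 CPM. Of 15 capillarization and matrix genes, 14 were measured in engineered MSC and PBS members. Of these, 5 were more than 2-fold lower in engineered MSC, and the median log2 ratio was -0.27. Stellate cells make the same collagens, and their list summed to 615, 599 and 866 CPM in members with every one of its 11 genes above 0 in engineered MSC and PBS members and 5 of them at 0 in native MSC members; the part of those cells in the collagen values was not tested.

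Most genes of a list of glycolytic and hypoxia-induced genes were lower in engineered MSC than in PBS members. Of 21 measured, 13 were more than 2-fold lower and none more than 2-fold higher than in PBS members, and the median log2 ratio was -1.21 against -0.28 in T-cell barcodes and -0.80 in venous and vascular barcodes. Between native MSC and PBS members the median was -0.26, and 1 gene was more than 2-fold higher. Pkm, the last enzyme of glycolysis, was at 157 CPM in engineered MSC, 487 CPM in native MSC and 583 CPM in PBS members, 3.72-fold lower (3.44 to 4.02) in engineered MSC than in PBS members and 3.10-fold lower than in native MSC members. Pgk1 was at 91.2, 206 and 329 CPM, 3.60-fold lower in engineered MSC than in PBS members, and Aldoa at 64.9, 140 and 219 CPM, 3.37-fold lower. Ldha, which makes lactate, was at 152, 221 and 368 CPM, 2.42-fold lower. The lactate exporter Slc16a3 was at 0.939, 8.59 and 11.8 CPM, 12.5-fold lower (5.37 to 33.9), and its log2 ratio of -3.65 was -4.77 when each barcode counted alike and -2.26 with no limit on Ptprc, Clec4f and C1qb. Of the 21 genes, 3 had positive log2 ratios between engineered MSC and PBS members. Bnip3, a mitophagy receptor, was 1 of these exceptions, at 23.3, 28.6 and 12.2 CPM, 1.92 times as high (1.30 to 2.93) in engineered MSC as in PBS members.

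Heat shock chaperones were lower in the sinusoidal endothelium of both MSC livers than in that of the PBS liver. All 11 measured genes had negative log2 ratios in engineered MSC members, 6 beyond 2-fold with a median of -1.08, and all 11 in native MSC members, 7 beyond 2-fold with a median of -1.10. With venous barcodes kept, Hspa1a turned to 0.036 in engineered MSC and Hspb1 to 0.63 in native MSC members. The 2 comparisons share the PBS library. In T-cell barcodes the medians were -0.01 and 0.06, and in venous and vascular barcodes -1.11 and -1.07. Hsp90ab1 was at 924 CPM in engineered MSC, 1472 CPM in native MSC and 2801 CPM in PBS members, 3.03-fold lower (2.93 to 3.14) in engineered MSC and 1.90-fold lower in native MSC than in PBS members. Hspd1, a mitochondrial chaperone, was at 120, 152 and 360 CPM, 3.01-fold and 2.37-fold lower. Hsph1 was at 107, 68.7 and 228 CPM, 2.12-fold and 3.31-fold lower. Dissociation at 37 °C can induce these genes, and its part in the difference was not tested.

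As a group, scavenger and endocytosis genes differed little between engineered MSC and PBS members. Of 17 measured, 1 was more than 2-fold higher, none was more than 2-fold lower, and the median log2 ratio was 0.15. That gene was Ehd3, a protein of endosome recycling, at 2347 CPM in engineered MSC, 1148 CPM in native MSC and 747 CPM in PBS members, 3.14 times as high (2.99 to 3.30) in engineered MSC and 1.54 times as high in native MSC as in PBS members. The mannose receptor Mrc1 was at 1568, 1105 and 905 CPM, 1.73 times as high in engineered MSC as in PBS members. The Fc receptor Fcgr2b, which clears small immune complexes, was at 1597, 1383 and 1070 CPM, a ratio of 1.49. Stab1 (stabilin 1) was at 444, 667 and 401 CPM, 1.11 times as high in engineered MSC and 1.67 times as high in native MSC as in PBS members. The lysosomal protease Ctsl was at 1163, 1693 and 674 CPM, with ratios of 1.73 and 2.51 to PBS. Lgmn, another lysosomal protease, was at 738, 627 and 1230 CPM, 1.67-fold lower in engineered MSC and 1.96-fold lower in native MSC than in PBS members. Among transcription factors of sinusoidal identity, Maf was at 3111, 2036 and 1951 CPM and Gata4 at 558, 470 and 391 CPM, with ratios of 1.59 and 1.42 between engineered MSC and PBS members.

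**Figure D5:**
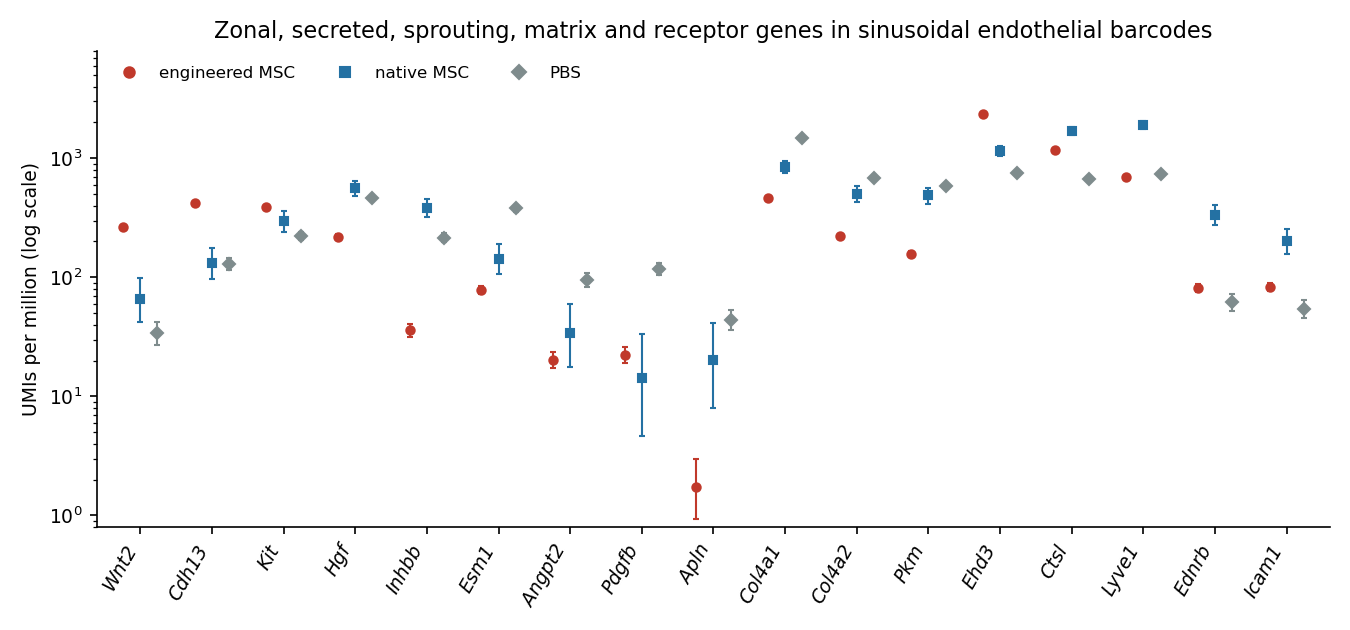
CPM (vertical axis, log scale) of 17 genes named in the text in sinusoidal endothelial barcodes of the engineered MSC, native MSC and PBS libraries; bars are exact Poisson 95% intervals. Wnt2 and Ehd3 are highest in engineered MSC (266 and 2347), Esm1, Pdgfb, Col4a1 and Col4a2 are highest in PBS (380, 117, 1480 and 683), and Lyve1, Ednrb and Icam1 are highest in native MSC (1904, 335 and 200).

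Chemokines differed gene by gene. Of 14 measured, 4 were more than 2-fold higher and 3 more than 2-fold lower in engineered MSC than in PBS members. Cxcl9, which interferon-gamma induces and which attracts T cells, was at 126 CPM in engineered MSC, 51.6 CPM in native MSC and 39.7 CPM in PBS members, 3.17 times as high (2.57 to 3.94) in engineered MSC as in PBS members, a log2 ratio of 1.66 that was 2.46 with no limit on Ptprc, Clec4f and C1qb. Cxcl10 was at 124, 126 and 45.0 CPM, 2.76 times as high in engineered MSC and 2.80 times as high (1.93 to 4.00) in native MSC as in PBS members, log2 ratios of 1.47 and 1.48 that were 2.42 and 2.49 after thinning. Tnfsf10, the death ligand TRAIL, which is no chemokine, was at 164, 65.9 and 25.1 CPM, with ratios of 6.54 (5.06 to 8.58) and 2.62 (1.55 to 4.29) to PBS. Ackr4, a decoy receptor that removes chemokines, was at 19.7, 5.73 and 2.43 CPM. Ccl2, which attracts monocytes, was at 9.26, 143 and 73.0 CPM, 7.89-fold lower (5.94 to 10.6) in engineered MSC than in PBS members, a log2 ratio of -2.98 that was -1.27 with no limit on Ptprc, Clec4f and C1qb. Ccl2 was at 22, 67.1 and 178 CPM in T-cell barcodes, so in the engineered MSC and PBS libraries the member level did not exceed that of barcodes that should lack it.

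The native MSC members, although 49 barcodes, differed from the PBS members in genes of NF-kB signalling and early response. Of 11 measured NF-kB feedback genes, 5 were more than 2-fold higher and 2 more than 2-fold lower in native MSC than in PBS members, with a median log2 ratio of 0.94. That median was 0.35 with no limit on Ptprc, Clec4f and C1qb. It was -0.35 in T-cell barcodes and 1.08 in venous and vascular barcodes. Nfkbia, which holds NF-kB in the cytoplasm, was at 235 CPM in engineered MSC, 567 CPM in native MSC and 232 CPM in PBS members, 2.45 times as high (2.07 to 2.88) in native MSC as in PBS members. Tnip1, a partner of the ubiquitin-editing enzyme A20, was at 69.9, 186 and 53.1 CPM, a ratio of 3.50 (2.56 to 4.75) between native MSC and PBS members. Of 14 measured immediate early genes, 5 were more than 2-fold higher and none more than 2-fold lower in native MSC members, 12 had positive ratios, and the median log2 ratio was 0.86. With no limit on Ptprc, Clec4f and C1qb this median was 0.43. In T-cell barcodes it was -0.34, and in venous and vascular barcodes 0.97. Fosb was at 127, 372 and 114 CPM, a ratio of 3.26 (2.62 to 4.02) whose log2 value of 1.70 was 0.75 with no limit on Ptprc, Clec4f and C1qb, and Egr1 at 263, 498 and 229 CPM, a ratio of 2.18. Markers of other cells were present in the same barcodes. The neutrophil list summed to 69.4 CPM in engineered MSC, 455 CPM in native MSC and 110 CPM in PBS members, with 0, 4 and 3 of its 10 genes at 0. It was higher in T-cell barcodes of the same libraries, at 181, 1975 and 509 CPM. The part of such RNA in the NF-kB feedback and immediate early genes was not tested.

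A few genes of vascular tone and adhesion were higher in native MSC than in PBS members, while their lists as a whole were not. Of 13 measured genes of shear response and nitric oxide, 1 was more than 2-fold higher and 2 more than 2-fold lower in native MSC than in PBS members, with a median log2 ratio of 0.21. Of 12 measured genes of adhesion and cell trafficking, 1 was more than 2-fold higher and 2 more than 2-fold lower, with a median of -0.27. Ednrb, the endothelin B receptor that clears endothelin, was at 81.7 CPM in engineered MSC, 335 CPM in native MSC and 62.1 CPM in PBS members. It was 5.40 times as high (4.21 to 6.91) in native MSC as in PBS members, and in thinned members it was detected in 2.49%, 34.1% and 2.36% of barcodes. Icam1, the leukocyte adhesion molecule, was at 82.9, 200 and 54.4 CPM, 3.69 times as high (2.72 to 4.96) in native MSC and 1.53 times as high in engineered MSC as in PBS members. Of its 70 native MSC UMIs 23 came from 1 barcode, and thinned detection was 6.11%, 9.09% and 4.28%. After thinning, the log2 ratios of native MSC to PBS were 3.24 for Ednrb, in place of 2.43, and 2.62 for Icam1, in place of 1.88. Lyve1, a hyaluronan receptor of sinusoidal and lymphatic endothelium, was at 694, 1904 and 742 CPM, 2.57 times as high (2.34 to 2.81) in native MSC as in PBS members, a log2 ratio of 1.36 that was 0.70 with no limit on Ptprc, Clec4f and C1qb, and 2.74-fold lower in engineered MSC than in native MSC members, a log2 ratio of -1.46 that was -0.71 in that setting. The lymphatic genes Prox1 and Pdpn were at 20.7, 14.3 and 8.11 CPM and at 3.35, 0 and 4.46 CPM.

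Some genes outside the lists were picked by a rule on interval bounds and abundance. Higher in both MSC libraries than in PBS members were Itga8, Cd300lg and Ndrg1. Itga8, an integrin chain that binds nephronectin, was at 231 CPM in engineered MSC, 85.9 CPM in native MSC and 16.6 CPM in PBS members, with ratios of 13.9 (10.2 to 19.4) and 5.17 (3.12 to 8.48). Cd300lg (nepmucin), a receptor of fenestrated and lymph node vessels, was at 367, 238 and 75.8 CPM, with ratios of 4.83 and 3.13. Ndrg1, a stress-induced gene, was at 233, 221 and 70.6 CPM, with ratios of 3.31 and 3.12. Cdkn1c, an inhibitor of cyclin-dependent kinases, was at 52.1, 20.0 and 3.24 CPM, and engineered MSC members were 16.0 times as high (8.06 to 37.4) as PBS members, a log2 ratio of 4.00 that was 2.86 after thinning. With 7 and 8 UMIs in native MSC and PBS members, Cdkn1c was not measured in that pair. Gpr155, a lysosomal cholesterol sensor, was at 103, 25.8 and 11.8 CPM, a ratio of 8.77 (6.06 to 13.2) between engineered MSC and PBS members and of 2.19 (0.912 to 4.75), an interval that covers 1, between native MSC and PBS members.

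Among the genes that the rule named as lower, Ctla2a, a protease inhibitor, was at 172 CPM in engineered MSC, 871 CPM in native MSC and 884 CPM in PBS members, 5.14-fold lower (4.79 to 5.51) in engineered MSC than in PBS members. Ch25h, which makes the signalling lipid 25-hydroxycholesterol, was at 4.29, 2.86 and 65.3 CPM, 15.2-fold lower (10.4 to 23) in engineered MSC than in PBS members, with 1 UMI in native MSC members. The log2 ratio of engineered MSC to PBS for Ch25h was -4.54 when each barcode counted alike, in place of -3.93. The tubulin gene Tubb3 was at 1.61, 11.5 and 59.6 CPM, 37.0-fold lower (20.6 to 73.3) in engineered MSC than in PBS members. The amino acid transporter Slc1a5 was at 5.50, 37.2 and 61.2 CPM, 11.1-fold lower (7.84 to 16.1), and the potassium channel Kcnj8 at 9.66, 54.4 and 81.9 CPM, 8.48-fold lower (6.45 to 11.3). Armcx4 and the unnamed transcript AI506816 were 5.49-fold and 10.4-fold lower in engineered MSC than in PBS members. With no limit on Ptprc, Clec4f and C1qb the log2 ratio was -3.95 for Tubb3, in place of -5.21, -2.07 for Slc1a5, in place of -3.48, -2.48 for Kcnj8, in place of -3.08, and -2.74 for AI506816, in place of -3.37. When each barcode counted alike, that of Tubb3 was -6.06.

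Native MSC members were set apart from both others by 3 more of these genes. Cyp26b1, which degrades retinoic acid, was at 711 CPM in engineered MSC, 229 CPM in native MSC and 639 CPM in PBS members, 2.79-fold lower (2.23 to 3.54) in native MSC than in PBS members. Hpgd, which inactivates prostaglandins, was at 336, 77.3 and 177 CPM, 4.35 times as high (2.98 to 6.61) in engineered MSC as in native MSC members. Peg10, an imprinted gene derived from a retrotransposon, was at 7.38, 152 and 25.1 CPM, 6.04 times as high (4.10 to 8.85) in native MSC as in PBS members and 20.6-fold lower (13.8 to 30.6) in engineered MSC than in native MSC members. With no limit on Ptprc, Clec4f and C1qb the log2 ratio of engineered MSC to native MSC was 1.41 for Hpgd, in place of 2.12, and -3.20 for Peg10, in place of -4.36, and that of native MSC to PBS was 1.89 for Peg10, in place of 2.59.

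A few names under the rule rested on few barcodes. Dmbt1, a mucin-like protein of epithelium, had 403 UMIs in engineered MSC members, of which 397 were in 1 barcode, and none in the other 2 libraries. Nrg1 was at 67.3, 0 and 2.84 CPM, from 37 engineered MSC barcodes, with 78 of its UMIs in 1 of them. Ccl21a, a chemokine of lymphatic vessels, was at 56.5, 0 and 53.1 CPM, and 295 of its engineered MSC UMIs and 121 of its PBS UMIs were in 1 barcode each. Dcn, a proteoglycan of fibroblasts, was at 134, 5.73 and 180 CPM, with 240 of the engineered MSC UMIs in 1 barcode.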

How the data were processed

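Single-cell libraries were made with 10x 3′ chemistry from livers dissociated at 37 °C, per the labels' protocols. The authors deposited 1 matrix of whole UMI counts per gene and barcode for each library, filtered to 33246 barcodes and 34099 genes; per the submitters' processing notes these were made with Cell Ranger 7.1.0 on GRCm39. No normalized values and no cell type annotation were used. Deposited matrices held 62564254 UMIs for engineered MSC, 84950721 for native MSC and 82247448 for PBS.

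Members and gene lists were chosen with earlier results of these data known. Member UMIs were summed per library and divided by the library's member total (CPM). Levels have exact Poisson, ratios exact conditional binomial and shares exact Clopper-Pearson 95% intervals, which cover counting error only. Genes with under 20 UMIs in a pair were left out of that pair's counts, 2-fold was the size threshold, 0.5 UMIs replaced 0 in log2 ratios, and a floor of 3 UMIs gave bounds. T-cell barcodes had at least 2 of Cd3d, Cd3e and Cd3g, no marker of the rule and no Cd79a. Genes outside the lists were named by a rule: the 10 in each direction whose interval bound nearest 1 was farthest from it, among genes with at least 50 UMIs and 50 CPM in the library where they were higher. In that library their level in members also had to be at least that in all other kept barcodes. Not eligible were mitochondrial, ribosomal protein, haemoglobin, immunoglobulin, T cell receptor, predicted and certain sex-linked genes. The hepatocyte, red cell and neutrophil lists and the genes of the choosing rule were not eligible either. Some genes of the lists and of this rule are not reported here. Doublets were kept, and removing calls of Scrublet was an alternative. The interval code was tested on simulated data. Python 3.11.15, NumPy 2.4.6, SciPy 1.17.1, pandas 2.3.3 and Scanpy 1.11.5 were used.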

Additional observations from a re-analysis of the deposited data

How the results depend on the processing

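No paired analysis was possible because each group was 1 library, and for the same reason no library was left out in turn. Alternatives were tried for the limits on genes, mitochondrial share and markers, doublet calls, venous barcodes, thinning, scaling and the minimum of UMIs; those on Ptprc, Clec4f and C1qb and on barcodes with markers of other cells were chosen after seeing the data. The log2 ratio of shares, 1.39 for engineered MSC over PBS, was 1.22 after thinning, 0.50 with barcodes without Ptprc as the base, 0.92 with up to 1 UMI of the 3 genes and 0.47 with no limit on them. For engineered MSC over native MSC it was 4.76, and 4.23, 3.59, 4.26 and 3.92 under the same settings, with 4.28 when venous barcodes were kept. For native MSC over PBS it was -3.37, and -2.76 with venous barcodes kept.

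Counts of genes past 2-fold followed the minimum of UMIs. In engineered MSC over PBS, 2902 genes were higher and 2688 lower at 1 UMI, and 716 and 564 at 100 UMIs, while 964 were higher after thinning. In native MSC over PBS, 4087 were higher at 1 UMI, 123 at 100 UMIs, 379 after thinning and 952 with no limit on the 3 genes, and 251 were lower at 100 UMIs. In engineered MSC over native MSC, 890 were higher at 100 UMIs, and 6313 were lower at 1 UMI and 370 at 100 UMIs.

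Over 17 settings, 76 of 78 reported gene ratios of engineered MSC to PBS kept their sign, as did 32 of 33 of native MSC to PBS and 9 of 10 of engineered MSC to native MSC, and 20, 13 and 8 of them moved by more than 1.5 times in at least 1 setting. The exceptions were Erap1, Hspa1a, which was 0.036 with venous barcodes kept, Hspb1, which was 0.63 in that setting, and Stat2. Not all settings could move a ratio. A minimum of 1 or 100 UMIs left each gene's ratio as it was, and centring or rescaling moved all genes by the same amount. The interferon median of native MSC over PBS, -0.13, was -1.01 after thinning and 0.04 without the members richest in hepatocyte genes, and the cause was not tested. The interferon median of engineered MSC over PBS stayed between 1.10 and 1.43. The angiocrine median of 0.03 lay between -0.52 and 0.11, and changed sign in some settings. Depth limits the native MSC values most: 3 UMIs there correspond to 8.59 CPM, against 0.402 CPM in engineered MSC and 1.22 CPM in PBS members.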

Other observations

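Genes of ribosome assembly, a list of 20 drawn up after values had been seen and so no support for a direction, were lower in engineered MSC members. Of 20 measured, 18 were more than 2-fold lower in engineered MSC than in PBS members, with a median log2 ratio of -1.56, against -0.10 in T-cell barcodes and -1.36 in venous and vascular barcodes. Fbl, which methylates ribosomal RNA, was at 38.8 CPM in engineered MSC, 88.8 CPM in native MSC and 176 CPM in PBS members, 4.53-fold lower (3.89 to 5.28) in engineered MSC than in PBS members. Npm1, a histone and ribosome chaperone of the nucleolus, was at 305, 550 and 827 CPM, 2.71-fold lower. Polr1b, a subunit of RNA polymerase I, differed least and was 1.59-fold lower (1.07 to 2.33). Between engineered MSC and native MSC members the median was -1.06, and 11 genes were more than 2-fold lower in engineered MSC.

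DNA replication and division genes of the cell cycle list went in different directions. The helicase subunits Mcm2 and Mcm3, which open DNA for replication, were at 20.8, 37.2 and 69.8 CPM and at 55.0, 68.7 and 128 CPM in engineered MSC, native MSC and PBS members, 3.35-fold and 2.32-fold lower in engineered MSC than in PBS members. Mki67 and Cenpf, which mark dividing cells, were at 20.3, 34.4 and 8.52 CPM and at 22.5, 28.6 and 4.06 CPM. T-cell barcodes had more Mki67, at 197, 253 and 58.9 CPM.

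Of 14 measured genes of the oxidative stress response, 5 were more than 2-fold lower and 1 more than 2-fold higher in engineered MSC than in PBS members. The median log2 ratio was -0.43, and 5 genes had positive ratios. With at least 2 markers asked of a member the median was -0.10. Hmox1, which breaks down haem, was at 69.6, 143 and 202 CPM in engineered MSC, native MSC and PBS members, 2.91-fold lower (2.57 to 3.29) in engineered MSC than in PBS members. The metallothionein Mt2 was at 50.7, 103 and 165 CPM, 3.26-fold lower (2.82 to 3.75).

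MHC class II genes, unlike class I, gave no steady value. H2-Aa was at 15.2, 8.59 and 43.8 CPM and the invariant chain Cd74 at 24.3, 5.73 and 58.8 CPM in engineered MSC, native MSC and PBS members, below the 100, 123 and 377 CPM of Cd74 in T-cell barcodes. The list's median log2 ratio of engineered MSC to PBS was -0.95 and lay between -1.93 and 0.09 over the settings.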
